A study of Arabidopsis thaliana with 14 samples.

Results

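A set of 150 Arabidopsis thaliana loci was taken for its low signal in whole inflorescences after fruit removal. For each of 21195 loci, the highest of 6 arrays from fruit-removed plants was subtracted from the lowest of 4 arrays from arrested or growing plants, and the 150 loci with the widest gap were kept. The members were thus selected on measured values, and their difference between these 2 sides is a description that was given no test. The inflorescence arrays came from fertile ms1-1 co-segregant plants that had arrested and then lost their fruits 6 h, 24 h or 48 h earlier (2 arrays each), from sterile growing ms1-1 homozygotes (1 array), from fertile co-segregants that were growing (1 array), and from fertile co-segregants in arrest with fruits kept (2 arrays). Another 4 arrays, which played no part in the choice, held laser-dissected shoot meristems from co-segregants with fruits removed 48 h earlier, growing ms1-1 homozygotes, growing co-segregants and arrested co-segregants, with 1 array each. The protocol also names the Landsberg erecta accession and speaks of removing all fruits but the 3 to 4 nearest the inflorescence, whereas the series text speaks of all fruits. Inflorescences up to about floral stage 10 were pooled from 3 to 10 plants, and meristems from at least 20.

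In Arabidopsis, an inflorescence that has set many fruits stops producing flowers, a state called proliferative arrest, and taking the fruits off lets its meristems resume. Male-sterile plants such as ms1 set no seed and keep growing for longer. Arrested apices carry transcripts known from dormant buds, abscisic acid response and sugar shortage. The circadian clock, whose parts include pseudo-response regulators and the ELF3 complex, runs in every shoot tissue and follows the time of day.

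Array medians lay between 7.27 and 7.40 (log2 signal) after fruit removal and between 7.29 and 7.45 in arrested and growing inflorescences. The 25S ribosomal RNA control probe read 11.40 to 12.24 in the removed arrays and 12.53 to 13.43 in the others, so it separated the same 2 sides as the rule, and its part in the members' difference was not tested. The GAPDH control, middle minus 5' probe, was 2.33 in replicate 2 of 48 h and 0.33 to 1.13 in the other inflorescence arrays. That replicate was the lowest removed array in 36 members, and replicate 1 of 6 h in 34. What RNA quality contributed was not tested. Every removed array has a title code that begins with g, as does arrested replicate 2, while arrested replicate 1 and both growing arrays are coded r. The labels do not explain the code. The labels give no hour of the day for the collections, so hour and treatment cannot be told apart. The meristem markers set the meristem arrays apart from the whole inflorescences. CLV3, a stem cell peptide, read 8.47 to 9.26 there and 4.51 to 5.38 in whole inflorescences, and the meristem gene STM read 11.25 to 11.41 there and 8.23 to 9.40 in whole inflorescences. In material of many cell types, fewer cells of a type and less RNA per cell cannot be told apart.

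The members were well expressed genes with a moderate gap. Their median level over the 4 arrested and growing arrays was 9.18, against 7.39 for all loci, and none was listed at 0 in any array. Arrested and growing inflorescences exceeded the removed ones by a median of 2.23-fold (means of 4 over means of 6 arrays), from 1.55-fold to 29.1-fold. The fold reached 2 in 100 members and 4 in 13 members.

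**Figure D1:**
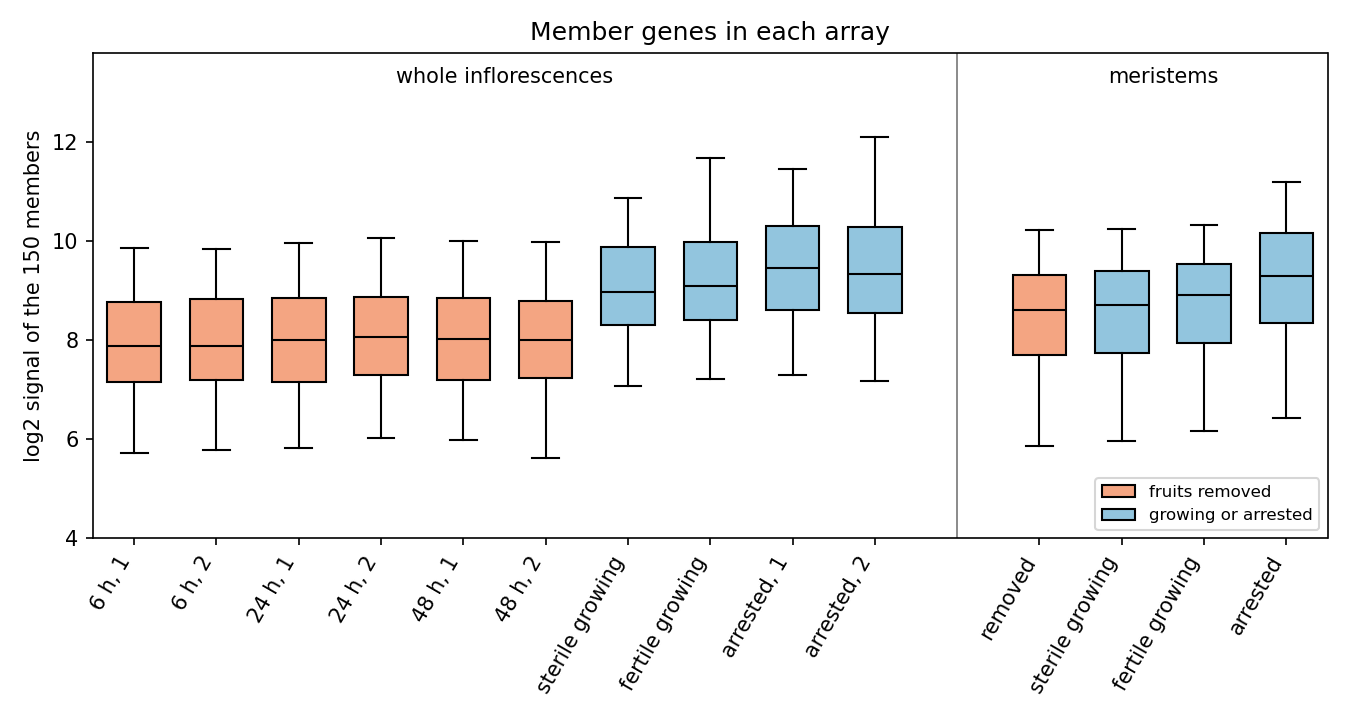
Box plots of the log2 signal of the 150 members in each of the 10 inflorescence arrays and 4 meristem arrays (box, quartiles with the median; whiskers, the 5th and 95th percentiles; h, hours since fruit removal; numbers, replicates). Member means lay between 7.89 and 8.04 in the 6 removed inflorescence arrays and between 9.06 and 9.46 in the other 4, the contrast on which the members were chosen; in meristems, which were not used, the removed array averaged 8.38 and the arrested one 9.16.

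The gap ran from 2.13 down to 0.40, with a median of 0.55. All 6 removed arrays lay below all 4 others in 1150 loci, or 5.43% of those measured, and above them in 549, or 2.59%. The members are the upper end of the first of these groups. Just inside the threshold stood AT5G08520 and AT5G23610 at 0.41 and the F-box gene SKP2B at 0.40, and just outside stood AT3G02390, ML3 and AT5G12270, also at 0.40. Of 6 loci tied at that value, 1 entered by its place in the file.

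The removed arrays were close to each other: a member's values spanned a median of 0.48 over the 6, against 0.62 for all loci, which the rule favours. The lowest of the 4 other arrays, which sets the gap, was the sterile growing one in 62 members, the fertile growing one in 50, arrested replicate 2 in 25 and arrested replicate 1 in 13. Against the g-coded arrested replicate 2 alone, the removed mean lay lower by a median of -1.26 (log2), and against the r-coded replicate 1 by -1.30. Against the growing arrays the median was -0.98 for the sterile and -0.96 for the fertile one. The rule put all 4 below 0, so these values say nothing of what the title code contributed, which was not tested.

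RbcX1, a chaperone for the assembly of Rubisco, had the widest gap. It read 5.83 and 6.95 at 6 h after removal, 5.82 and 6.74 at 24 h, and 5.85 and 5.75 at 48 h, against 9.36 in sterile growing, 9.56 in fertile growing and 10.78 and 9.08 in arrested inflorescences. All removal times lay below the other arrays, as the rule requires of every member. MEE14 read 7.55 and 7.68 at 6 h, 7.80 and 8.57 at 24 h, and 7.94 and 6.54 at 48 h, against 10.30 in sterile growing, 12.47 in fertile growing and 11.31 and 12.87 in arrested inflorescences. AT3G10020, which has no symbol in the gene table, read between 7.58 and 8.12 after removal and between 9.82 and 12.15 on the other side. For these last genes the sterile growing array was the lowest of the 4, and growing and arrested values overlapped.

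**Figure D2:**
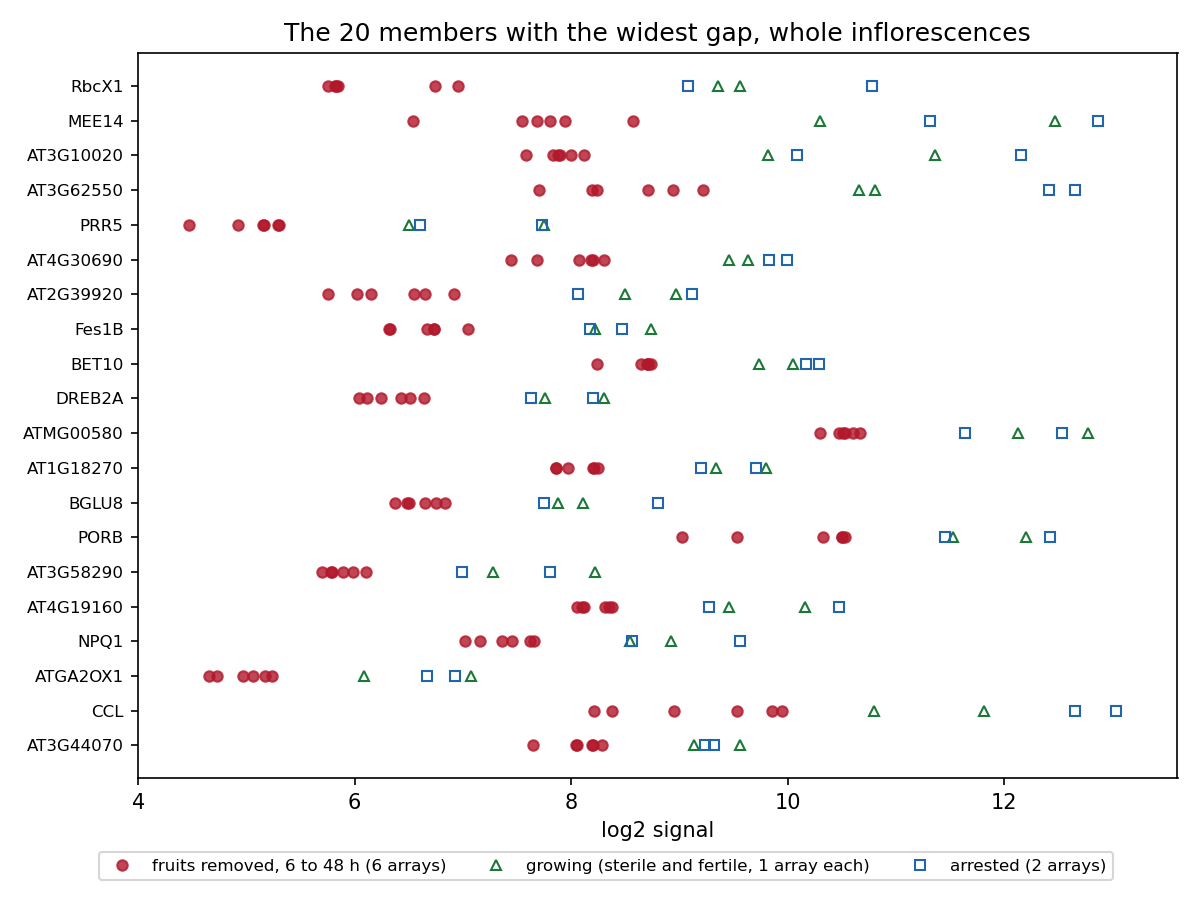
Log2 signal of the 20 members with the widest gap in each inflorescence array (filled circles, 6 arrays after fruit removal; triangles, the sterile and the fertile growing array; squares, 2 arrested arrays). In every gene shown the filled circles lie left of all other symbols, as the rule requires, with RbcX1 at 5.75 to 6.95 after removal and at 9.08 to 10.78 in the other arrays.

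AT3G62550 read 8.71 and 8.94 at 6 h, 7.70 and 9.22 at 24 h, and 8.24 and 8.19 at 48 h, against 10.66 and 10.81 in sterile and fertile growing and 12.41 and 12.65 in arrested inflorescences. It lay at 3 levels, with the growing arrays between the other groups. Others of the 20 were Fes1B, BET10 and DREB2A (below), AT4G30690, AT2G39920, AT1G18270, AT3G58290, AT4G19160, AT3G44070, the beta-glucosidase gene BGLU8 and CCL, whose gaps ran from 1.16 for AT4G30690 to 0.85 for CCL and AT3G44070. ATMG00580, the only member with a mitochondrial genome identifier, read 10.30 to 10.67 after removal and 11.64 to 12.77 otherwise. Of 17 loci with such identifiers it was the 1 whose sides did not overlap.

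By known function, 62 members were sorted into 11 groups after their values were seen, and 88 were left unsorted. The groups describe what the members are and say nothing of how often such genes occur elsewhere. Folds in the following paragraphs are arrested and growing over removed, in whole inflorescences, and meristem differences are removed minus arrested, in log2.

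The chloroplast group had 8 members with a median fold of 2.37. Beside RbcX1 it held PORB, which makes chlorophyllide in the light, NPQ1, the violaxanthin de-epoxidase of photoprotection, CYP38, a cyclophilin of photosystem II assembly, and NYC1, a chlorophyll b reductase that acts in chlorophyll breakdown. PORB read 9.53 and 10.33 at 6 h, 10.50 and 10.53 at 24 h, and 10.50 and 9.02 at 48 h, against 11.53 in sterile growing, 12.20 in fertile growing and 11.45 and 12.42 in arrested inflorescences. PORB and NYC1 were both low in the removed arrays, as the rule requires. In meristems all 8 read lower in the removed than in the arrested array, from -0.23 for CYP38 to -1.69 for NYC1. So did 88.7% of all members and 44.2% of all loci, so this does not set the group apart from other members.

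The clock group held PRR5, PRR7 and ELF3, which repress morning genes. PRR5 read 5.30 and 5.16 at 6 h, 4.47 and 4.92 at 24 h, and 5.15 and 5.29 at 48 h, against 6.50 in sterile growing, 7.75 in fertile growing and 7.73 and 6.60 in arrested inflorescences. PRR7 read 8.28 and 8.40 at 6 h, 7.50 and 5.86 at 24 h, and 7.36 and 8.03 at 48 h, against 9.01 and 9.19 in sterile and fertile growing and 10.32 and 9.36 in arrested inflorescences. The 24 h replicates of PRR7 lay apart from each other by more than the 6 h pair did. ELF3 read 7.86 to 8.84 after removal and 9.28 to 9.71 otherwise. In meristems all 3 had their lowest value in the removed array, as had 50.7% of all members and 19.5% of all loci. PRR5 read 5.54 there, 6.50 and 6.23 in sterile and fertile growing and 7.40 in arrested meristems.

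Clock genes outside the set moved in both directions (genes chosen after their values were seen). Removed inflorescences were lower in the evening genes GI (-2.85 ± 0.50, adjusted p = 0.0091) and TOC1 (-1.49 ± 0.19, adjusted p = 0.00347), and higher in the morning genes LHY (2.13 ± 0.20, adjusted p = 0.00163) and CCA1 (0.99 ± 0.22, adjusted p = 0.0202), by limma with Benjamini-Hochberg adjustment (log2 difference ± SE). CCA1 nonetheless read lower in removed arrays (8.42 to 9.50) than in arrested ones (10.50 and 10.01), and it was higher than in the sterile and fertile growing ones (5.75 and 5.93). With the title code as a block, 0 of the 10 clock genes outside the set were lower and 1 was higher. What the hour of collection contributed was not tested.

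Genes of abscisic acid and water stress gave 9 members with a median fold of 2.39. They included the transcription factors ABF1, ABI5 and DREB2A, the phosphatase HAI1, the dehydrin HIRD11 (AT1G54410), the kinase CIPK21, the phospholipase PLDDELTA, the potassium transporter KUP6 and RCI2A, a small membrane protein induced by cold. DREB2A read 6.64 and 6.51 at 6 h, 6.24 and 6.43 at 24 h, and 6.04 and 6.11 at 48 h, against 8.30 in sterile growing, 7.76 in fertile growing and 7.63 and 8.20 in arrested inflorescences. Growing and arrested values of DREB2A overlapped. HAI1 read 7.19 to 7.99 after removal, against 8.49 and 8.58 in sterile and fertile growing and 9.38 and 8.75 in arrested inflorescences.

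In meristems this group had the widest median difference of the 11 groups between removed and arrested, -1.58. RCI2A read 8.99 in the removed meristem, 8.72 and 9.19 in sterile and fertile growing and 12.25 in the arrested one. DREB2A read 7.16 in the removed meristem, 7.57 and 8.03 in the sterile and fertile growing ones and 10.10 in the arrested one. For RCI2A and DREB2A the removed and growing meristems were thus closer to each other than to the arrested one. In whole inflorescences the rule puts the removed arrays below the growing and arrested ones. It does not fix which side the growing arrays lie nearer to, so the tissues cannot be compared on this. ABI5 alone in the group read higher in the removed (7.23) than in the arrested meristem (7.06).

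The group of sugar, starch and growth state had 5 members. AT2G33830, named DRM2 (dormancy associated gene 2) among the table's synonyms, had the largest fold of all members, 29.1. It read 5.52 and 6.12 at 6 h, 6.78 and 6.69 at 24 h, and 6.43 and 5.28 at 48 h, against 7.28 in sterile growing, 12.85 in fertile growing and 10.94 and 12.93 in arrested inflorescences. The sterile growing array lay near the removed arrays, and this array alone set the small gap of 0.50. FBA5, a fructose-bisphosphate aldolase, had a fold of 7.63, the beta-amylase family gene BAM4 3.11, the invertase gene A/N-InvC 3.09 and TOR, the growth-regulating kinase, 2.16. The arrested replicates of FBA5 lay far apart, at 12.02 and 8.71, its removed arrays reached 8.10, and its gap was 0.61.

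Among hormone genes stood the ethylene receptor ERS1, the ubiquitin ligase XBAT32, known to limit ethylene synthesis, the EIN2-binding protein ECIP1 and the gibberellin-inactivating oxidase ATGA2OX1. ERS1 read 7.37 and 7.19 at 6 h, 7.66 and 7.80 at 24 h, and 7.95 and 8.01 at 48 h, against 8.79 and 8.61 in sterile and fertile growing and 8.69 and 8.83 in arrested inflorescences. The 4 higher arrays of ERS1 lay close together. ATGA2OX1 read 4.65 to 5.24 after removal and 6.09 to 7.07 otherwise. In meristems it read 5.00 in the removed, 5.80 in the sterile growing, 5.23 in the fertile growing and 5.11 in the arrested array, so removed and arrested hardly differed there.

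Protein folding gave Fes1B and Fes1C, of a family of Hsp70 exchange factors, and the heat shock factor HSFA8. Fes1B read 6.32 to 7.05 after removal and 8.17 to 8.74 otherwise, a fold of 3.39, and its relative Fes1C had a fold of 2.21.

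The largest group, with 12 members, was that of chromatin and transcription, and its folds were small, with a median of 1.89. It held the bromodomain proteins BET9 and BET10, the chromatin remodeller SYD, the methyl-CpG-binding protein MBD02, the high mobility group protein HMGB1, the PHD-finger proteins TTA1, TTA2 and EDM2, the Mediator subunit PFT1 (MED25), BPC6, AHL9 (AT2G45850) and the MADS-box gene AGL18. BET10 read 8.71 and 8.74 at 6 h, 8.64 and 8.70 at 24 h, and 8.71 and 8.24 at 48 h, against 9.73 and 10.05 in sterile and fertile growing and 10.29 and 10.17 in arrested inflorescences. BET9 read 8.18 to 8.55 after removal and 9.19 to 9.63 otherwise, so both relatives were flat over the removal times. The pair TTA1 and TTA2 had folds of 1.87 and 1.90.

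RNA processing gave 7 members with a median fold of 1.96: the splicing factors SCL30, RS40 and ATU2AF65A, the helicase EMB3011 (CUV), the poly(A) polymerase PAPS2, the uridylyltransferase URT1 (AT2G45620) and the La-related protein LARP6a. Their folds all lay between 1.74 and 2.03. EMB2769 and EMB3011 share a symbol stem for embryo defects and CYP38 and CYP71A28 share only letters, so neither pair is a family.

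The ubiquitin system gave 6 members with a median fold of 2.29: the conjugating enzyme UBC2, the ligases UPL4, RMA1, XBAT31 and ARI1, and SKP2B. RMA1, a ligase of the endoplasmic reticulum membrane, had the largest fold of them, 3.73. VPS15 and AT4G30790 (ATG11) of autophagy and VCL1 of vacuole formation had folds of 1.66 to 2.17. The calcium pump ACA4 and the phospholipase PLC2 had folds of 2.63 and 1.81.

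**Figure D3:**
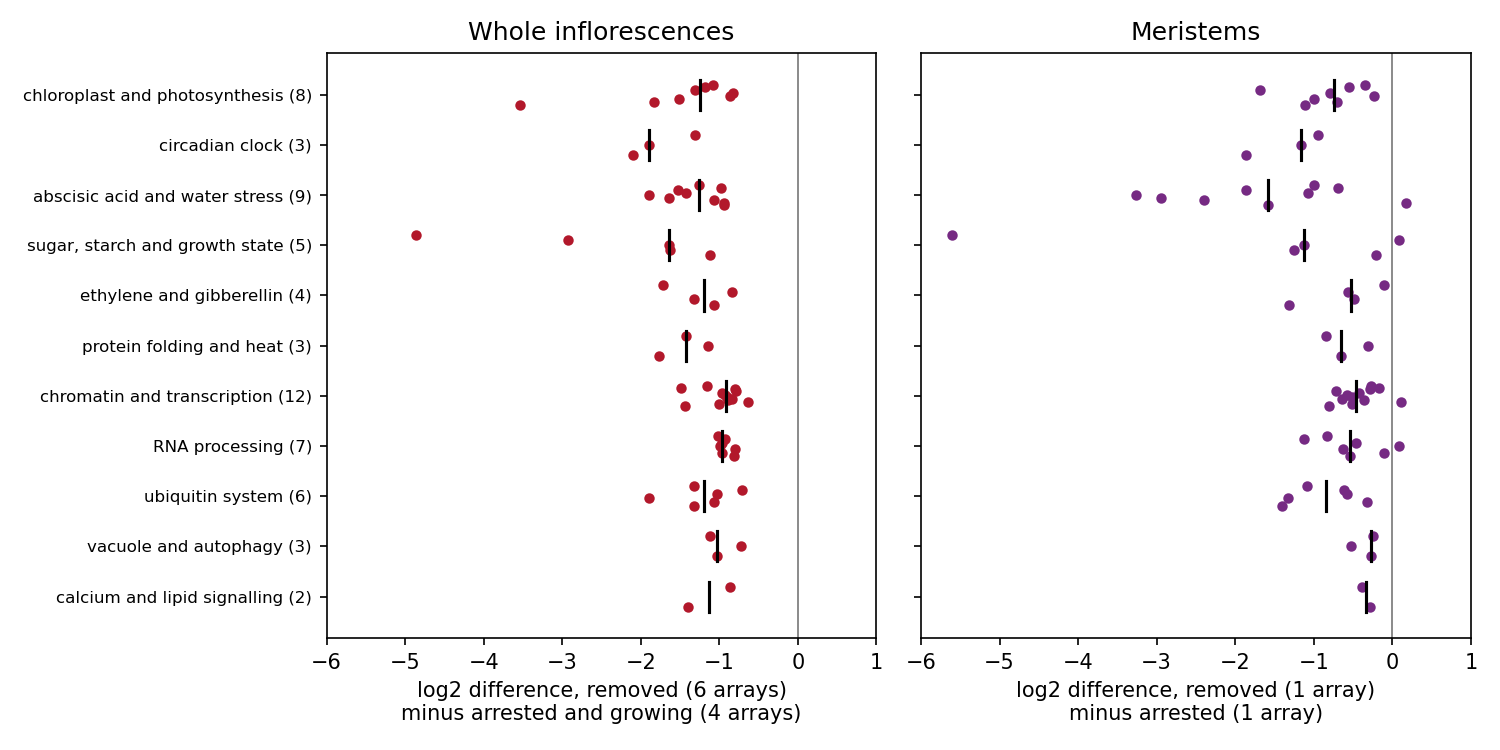
Log2 differences of the 62 members with a known function, by group (points, 1 gene each; black bars, group medians; number of members in brackets). On the left are removed minus arrested and growing inflorescences, all below 0 by the choice of members; on the right are removed minus arrested meristems, with a median of -1.58 for abscisic acid and water stress and -0.27 for vacuole and autophagy.

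Whether members kept changing between 6 h and 48 h after removal could be tested, since the rule treats the 6 removed arrays alike. The rule favours genes whose arrays agree on each side, so a low count of calls among them says little. All 10 inflorescence arrays were fitted together with limma, and loci were called at a Benjamini-Hochberg adjusted p under 0.05 over all loci. The labels do not say whether replicate pools came from separate plants, so p-values measure only the spread between these samples. Between 24 h and 6 h, 0 members were called in either direction, as over all loci (0.0% higher and 0.0% lower), while 15 of 150 members and 2329 of all loci had an unadjusted p under 0.05. Between 48 h and 24 h, 0 members were called by limma, against 0.472% of all loci higher and 0.0896% lower, while 4 of 150 members and 1340 of all loci had an unadjusted p under 0.05.

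Between 48 h and 6 h, 2 members rose and 0 fell, against 2.06% and 0.925% of all loci, so the members' share of rises (1.33%) was near the background. STY17, a protein kinase, read 8.35 and 8.23 at 48 h against 7.06 and 7.23 at 6 h, with 7.67 and 7.71 at 24 h. It rose by 1.15 ± 0.17 (log2, SE, n = 2 each; limma with Benjamini-Hochberg adjustment, adjusted p = 0.0174). AT2G22660 read 9.81 and 9.56 at 48 h against 8.62 and 8.36 at 6 h, and rose by 1.20 ± 0.23 (limma with Benjamini-Hochberg adjustment, adjusted p = 0.0388). Both still lay below every arrested and growing array at 48 h, as the rule requires. The count was 0 without either 6 h array or without replicate 2 of 48 h, 1 (a fall) without replicate 1 of 48 h, 1 without either 24 h array and 6 without either arrested array.

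Growing and arrested inflorescences lie on the same side of the rule. The rule favours members whose 4 arrays on this side agree, with a median span of 0.71 against 0.87 for all loci. A low count of calls among them therefore says little. Of the members, 1 was higher and 17 were lower in growing plants, against 14.0% of all loci higher and 11.9% lower, so the share of lower calls (11.3%) was near the background and that of higher calls (0.667%) was below it. The median difference was -0.27 in members and 0.07 over all loci. The lone growing arrays were assumed to vary like the replicate pairs. AT5G22270, named SIED1 among the synonyms, read 8.07 in sterile and 8.50 in fertile growing against 10.12 and 9.71 in arrested inflorescences, and fell by 1.63 ± 0.19 (limma with Benjamini-Hochberg adjustment, adjusted p = 0.000897). After removal it read 6.94 to 7.23, below both growing arrays.

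The other large falls in growing plants were those of AT3G62550 (-1.79 ± 0.43), CCL (-1.53 ± 0.39), CYP71A28 (-1.19 ± 0.35) and AT2G45820 (-0.99 ± 0.17), with adjusted p of 0.0188, 0.0255, 0.0395 and 0.00452 in the same limma fit. With the title code as a block, the difference became -1.675 for AT3G62550 and -1.345 for CCL, and both lost their call. Leaving out arrested replicate 2 gave the same values and is no separate check, since only the arrested pair holds both codes. CYP71A28 lost its call in 6 of its 12 alternatives, with quantile normalization and without arrested replicate 1 or any 1 of the 6 h and 48 h arrays (adjusted p up to 0.125). CCL read 10.80 in sterile and 11.81 in fertile growing against 12.65 and 13.03 in arrested inflorescences. NYC1 (-0.93), KUP6 (-0.90), SKP2B (-0.82), the callose synthase CALS1 (-0.72), VPS15 (-0.63), UPL4 (-0.61) and ATG11 (AT4G30790, -0.60) were also lower. RCI2A was the 1 member called higher, at 11.95 and 12.88 in sterile and fertile growing against 11.34 and 11.64 in arrested inflorescences (0.93 ± 0.24, limma with Benjamini-Hochberg adjustment, adjusted p = 0.0273). The count of 18 became 28 without arrested replicate 1 and 10, all lower, without either 6 h array. These counts were not set beside those over all loci in the same reruns.

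Between sterile and fertile growing inflorescences, 0 members were called higher and 1 lower, against 0.156% and 0.514% of all loci. The call was AT2G33830 (DRM2), at 7.28 in the sterile and 12.85 in the fertile array, a fall of 5.57 ± 0.88 (limma with Benjamini-Hochberg adjustment, adjusted p = 0.0461). Each group had 1 array, so the SE and the adjusted p rest on the spread of the replicate pairs in other groups, and genotype and array cannot be told apart. Both arrays also entered the choice of members. The call was lost without any 1 of the 6 h and 24 h arrays, with median centring and with a filter on low values, and 5 members were called without either arrested array.

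The meristem arrays were set beside these results as data that the rule did not use. With 1 array per group no test was made, and whether they share plants with the inflorescence pools is not stated in the labels. The removed meristem read below the arrested one in 133 of 150 members (88.7%), against 44.2% of all loci. It was at least 2-fold lower in 48 (32.0%), against 5.66%, and at least 2-fold higher in 0, against 6.53%. It was higher by at least 0.5 (log2) in 6 members (4.00%), against 22.7%. The median removed minus arrested difference was -0.65 in members and 0.08 over all loci.

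Against growing meristems the members differed less. The removed array lay below both growing ones in 80 members (53.3%), against 31.8% of all loci, with median differences of -0.09 from the sterile and -0.21 from the fertile array (-0.02 and 0.02 over all loci). It was the lowest of the 4 in 76 (50.7%), against 19.5%, and the highest in 5 (3.33%), against 22.4%. The arrested meristem was the highest of the 4 in 117 members (78.0%), against 31.6%. For most members the arrested meristem therefore stood above the 3 others. Member means ran in the same order in both tissues, arrested above growing above removed. In meristems they were 9.163 in arrested, 8.605 in fertile growing, 8.476 in sterile growing and 8.383 in removed. The rule set the removed arrays lowest in whole inflorescences, so the wider gap to growing arrays there shows no difference between the tissues.

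**Figure D4:**
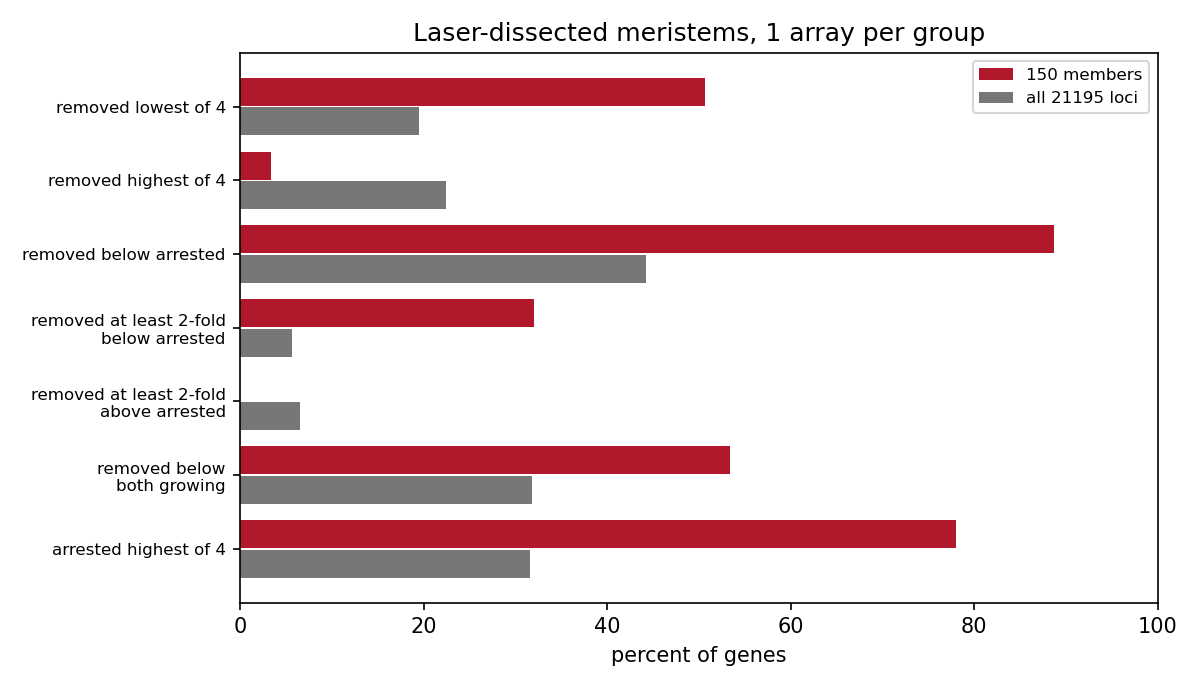
Percent of the 150 members and of all 21195 loci that meet each condition in the 4 meristem arrays (1 array per group, no error bars). The removed meristem was below the arrested one in 88.7% of members and 44.2% of all loci, and at least 2-fold above it in 0 members and 6.53% of all loci.

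Of the members that stood lowest in the removed meristem, AT2G33830 (DRM2) differed most: it read 6.11 there, 8.04 in sterile growing, 9.59 in fertile growing and 11.72 in arrested meristems. As in the inflorescences, the sterile growing array was the nearest to the removed one. AT2G25590 read 8.00 in the removed meristem, 8.95 and 9.47 in sterile and fertile growing and 9.92 in arrested meristems. A/N-InvC read 8.51 in the removed meristem, against 9.42, 9.45 and 9.76 in the sterile growing, fertile growing and arrested ones. For A/N-InvC the 3 others lay within a narrow band. MEE14 read 8.62 in the removed meristem, 9.26 and 9.33 in the sterile and fertile growing ones and 11.19 in the arrested one.

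The members highest in the removed meristem exceeded the nearest other array by little. TRX2, a cytosolic thioredoxin, read 9.21 there against 8.44, 8.82 and 8.71 in sterile growing, fertile growing and arrested meristems. AT5G55970 read 6.67 against 6.57, 6.18 and 6.45, EMB3011 10.21 against 10.15, 9.81 and 10.12, ABI5 7.23 against 7.17, 7.0 and 7.06, and AT5G15140 7.34 against 7.29, 6.91 and 6.50, in the same order. Differences of this size have no replicate behind them. RbcX1, first by gap in inflorescences, was low in every meristem array (5.69 in removed, 5.50 and 5.36 in sterile and fertile growing, 6.80 in arrested).

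The members were longer genes, by less when set beside loci of similar level. The 149 members found in the RefSeq table (TAIR10.1) spanned a median of 2829 bp, against 2272 bp for all loci and 2568 bp for 10798 loci of similar level. Those loci lay within the members' range of mean inflorescence levels after the lowest and highest 10% of members were left out. Spans from 4461 bp up, which hold 10% of all loci, were found in 28 members (18.8%). This share was not set beside that of the loci of similar level. Of the 150 loci chosen the opposite way, highest after removal, 6 (4.00%) had such spans. The members were spread over the 5 chromosomes much like all loci, from 16.7% of members on chromosome 2 (16.1% of all loci) to 24.7% on chromosome 1 (25.9%). Spacing along the chromosomes was not analysed here.

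Other genes of the same pathways were counted in 20 lists, leaving out the 9 members among them. Over all loci, removed inflorescences were higher than arrested and growing ones in 8.45% and lower in 12.8%, by limma with Benjamini-Hochberg adjustment. Of 24 genes of light harvesting and photosystems, 20 fell and 0 rose, among them PSBO1 (-1.04 ± 0.12, adjusted p = 0.00262), LHCA1 and LHCB5, with a list median of -0.74. The Calvin cycle and photorespiration list had 6 of 15 lower and 0 higher, among them PRK (-1.02 ± 0.18), and chlorophyll synthesis 3 of 9 lower and 0 higher. With the title code as a block, these counts of lower genes became 5, 0 and 1, and the quantile-normalised arrays gave 11, 2 and 2. List means of single arrays overlapped between the sides in each of these lists. For light harvesting they ran from 11.66 to 12.72 in removed arrays and from 12.05 to 13.22 in the others. No member belongs to light harvesting or the Calvin cycle as listed, so the chloroplast members stand beside, not in, those lists.

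Of 11 genes of bud dormancy and low sugar, 7 fell and 0 rose, with a median of -1.69. They included the bud dormancy homeobox genes HB40 (-1.69 ± 0.17, limma with Benjamini-Hochberg adjustment, adjusted p = 0.002) and HB53 (-1.20 ± 0.13), and TPS8, TPS9 and TPS11 of trehalose phosphate metabolism. HB53 read 4.79 to 5.79 after removal, against 5.09 and 5.67 in sterile and fertile growing and 7.73 and 8.06 in arrested inflorescences, so its growing arrays lay within the removed range. HB40 read 5.23 to 6.13 after removal, against 5.21 and 7.55 in sterile and fertile growing and 8.13 and 8.91 in arrested inflorescences. Abscisic acid response had 5 of 16 lower and 0 higher, among them ABI1 and ABF4, the senescence list 4 of 14 lower (NAP, SAG12) and 1 higher (SAG13), and light signalling 6 of 21 lower (CRY1, CRY2, PIF4) and 0 higher. CRY1 read 8.34 to 8.66 after removal, against 8.37 and 8.71 in sterile and fertile growing and 9.98 and 10.36 in arrested inflorescences. PIF4 read 5.00 to 5.30 after removal, against 5.29 and 6.11 in sterile and fertile growing and 6.56 and 7.0 in arrested inflorescences. For both genes the sterile growing array lay within the removed range. Ethylene had 7 of 14 lower, among them the receptors ERS2 and ETR2, and 1 higher. The circadian clock had 4 of 10 lower and 3 higher. With members included, list means of single arrays overlapped between the sides in every list of this paragraph. For dormancy they ran from 7.143 to 8.005 after removal and from 7.704 to 11.034 otherwise. With the code as a block, dormancy had 10 lower, abscisic acid 2, senescence 7, light signalling 7 lower and 4 higher, and ethylene 5 lower, with 0 higher in the other 4.

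Other lists ran the opposite way to the members. Jasmonate had 8 of 13 higher and 0 lower, among them the synthesis gene AOS (1.48 ± 0.14) and the repressor JAZ5 (2.40 ± 0.26), with adjusted p of 0.00163 and 0.00221 in the limma fit. Cuticle and wax had 9 of 20 higher and 0 lower, cell wall growth 7 of 20 higher and 0 lower, led by the expansin EXPA10 (1.93 ± 0.13), and cytokinin response 4 of 16 higher and 0 lower. Under the code as a block these became 5, 2, 4 and 4 higher, with 1 lower in cuticle and wax and 2 lower in cell wall growth. List means of single arrays overlapped between the sides in all of these lists except cuticle and wax (9.36 to 9.728 after removal, 8.711 to 9.196 otherwise).

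The remaining pathway lists had few calls or calls in both directions. Auxin response had 2 of 17 lower and 2 higher, gibberellin and brassinosteroid 2 of 15 lower, salicylic acid and defence 2 of 16 lower, and wounding and touch 1 of 16 lower and 3 higher. Iron, copper and metal handling had 7 of 26 lower and 4 higher, nitrate and amino acid metabolism 1 of 18 lower and 3 higher, and heat shock and protein folding 1 of 10 lower and 3 higher. With the title code as a block, auxin response had 5 lower and 2 higher, gibberellin and brassinosteroid 2 and 1, salicylic acid 0 and 0, wounding 2 and 1, metal handling 5 and 2, nitrate 3 and 1, and heat shock 1 and 1.

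Markers of cell types were counted in the same way, beside 8.45% of all loci higher and 12.8% lower. The pollen, seed, shoot meristem, phloem and trichome lists had few calls, near or below those shares. Anther and tapetum markers were lower in 8 of 14 and higher in 0 (median -0.74), and the mean of the list ranged from 5.45 to 9.35 in removed arrays and from 5.39 to 10.7 in the others. These ranges overlap. Xylem and fibre markers were higher in 5 of 16 and lower in 0, with list means of 5.82 to 6.78 after removal and 5.56 to 6.24 otherwise. Ovule, gynoecium and fruit markers were lower in 3 of 15, pollen in 1 of 8 (AGL18, a member, left out), seed in 2 of 19 and shoot meristem in 1 of 15, with 0 higher in each. Epidermis and guard cell markers had 2 of 16 lower and 4 higher, phloem 1 of 12 higher and trichome 1 of 10 in each direction. With the title code as a block, anther and tapetum markers had 3 lower and 0 higher, xylem and fibre and pollen markers 0 in either direction, ovule, gynoecium and fruit 2 and 2, and seed 2 and 0. Shoot meristem markers then had 0 lower and 4 higher, epidermis and guard cell 1 and 1, phloem and trichome each 1 and 0. The part of cell type shares in the members' difference was not tested.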

How the data were processed

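The values are log2 signals from 1 Affymetrix array per sample, as the authors deposited them in a series value table. The log2 scale was inferred from the range of values, and the normalization used was not given in the sources used here. Per the labels' protocols, RNA was labelled with biotin, and meristem RNA was amplified first. After 58 control probes were set aside, 21195 loci were used, of which 21097 were found in the RefSeq gene table (TAIR10.1), the source of symbols and synonyms. Replicate numbers follow sample order and pair nothing.

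The 10 inflorescence arrays were fitted with limma 3.58.1 under R 4.3.3 (lmFit, contrasts.fit and eBayes, 1 mean per group, 4 residual degrees of freedom), two-sided, with Benjamini-Hochberg adjustment over all loci and calls at an adjusted p under 0.05. The contrast of removal against arrested and growing averaged the 3 removal groups, and arrested with the mean of both growing groups. The fit was tried on simulated data with the same spread for every locus and group and with changes at 24 h only. That trial did not cover comparisons of single arrays. The number of arrays limits the precision. Differences follow ± with standard errors.

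The members and gene lists were chosen with earlier results of these data known. Genes named were the 20 members with the widest gap, up to 5 called members per direction and comparison, the 5 largest falls and 5 largest rises in meristems, 3 loci on each side of the threshold, members in a list and members sharing a symbol stem, 54 in all. Members named in functional groups, and list genes outside the set, were chosen after their values were seen. Of 516 listed symbols, 456 had a value, 4 matched another gene and were left out, and 56 had no match or value. Alternatives were 2 scalings, a filter on low values, the title code (r or g) as a block, a variance trend, and leaving out arrays. Only the arrested pair holds both codes, so every result with the code as a block rests on the difference within that pair. MS1 has no value here, so the sterile label was not checked by that gene. Promoter sequences were not analysed here.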

Additional observations from a re-analysis of the deposited data

Results flagged for a closer look

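In 6 members the removed meristem read above the arrested one by at least 0.5 (log2), while the inflorescences at 48 h lay below the arrested ones, as the rule fixes for every member. A meristem difference of that size was found in 4.00% of members, against 22.7% of all loci. In each case the difference between the tissues was not tested, since each meristem group had 1 array. The meristem and inflorescence differences were 0.87 and -1.34 for AT3G17770, 0.84 and -2.0 for AT5G15140, 0.84 and -0.87 for AT5G11580, 0.57 and -0.66 for SAMTL, 0.52 and -1.58 for AT2G07180, and 0.50 and -0.90 for TRX2.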

How the results depend on the processing

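Choosing the members again kept 118 of 150 after quantile normalization and 122 after median centring, but 36 when the difference of group means replaced the gap; leaving out 1 array kept 57 to 145 (57 without sterile growing and 99 without fertile growing, both added after seeing the data, and 99 without arrested replicate 2). The count of members called was 0 between 24 h and 6 h under every alternative run. Leaving out 1 array gave 0 to 1 between 48 h and 24 h, 0 to 6 between 48 h and 6 h, 10 to 28 between growing and arrested, and 0 to 5 between sterile and fertile growing. The title code as a block gave 6 between 48 h and 6 h and 5 between sterile and fertile growing, and the filter on low values and median centring each gave 0 between sterile and fertile growing. Such counts of members, here and above, were not set beside those over all loci in the same reruns. Whether the members or the whole fit moved was therefore not tested. Over all loci, removal against arrested and growing called 4513 (1792 higher, 2721 lower), 2732 with the code as a block and 2047 to 6038 without 1 array. Quantile normalization moved the split to 2660 higher and 2473 lower (51.8% higher, against 39.7%). Of 29 list medians, 2 changed sign under a scaling (nitrate and amino acid metabolism, phloem) and 3 with the title code as a block (heat shock, wounding and touch, epidermis and guard cell). Of the called gene results, only the 9 with the largest differences per comparison and direction were rerun singly. They kept their direction in all 116 reruns and lost their call in 29. Leaving out an array outside a comparison cannot change its difference, so many of these reruns could not reverse a direction. For these genes the title code as a block gave the same values as leaving out arrested replicate 2. The removed meristem was lowest in 78 members after quantile normalization and 72 after median centring. No paired analysis was possible because replicate numbers were given in sample order and pair nothing.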
